A study of Homo sapiens with 688 samples.

Results

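The 10 genes described here are DUSP4, DUSP5, DUSP6, SPRY2, SPRY4, SPRED1, SPRED2, ETV4, ETV5 and PHLDA1, genes known as transcriptional outputs and feedback inhibitors of ERK signalling. They were taken by symbol from every count table of the study, and all 10 were found among the 28430 symbols of the BT20 tables and among the 23710 symbols of the U87 and LnCAP tables. The rule is a list of names and holds no measured value.

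In the RAS, RAF, MEK and ERK cascade, growth factor receptors activate RAS, RAS activates the kinase RAF, RAF phosphorylates MEK and MEK phosphorylates ERK. Active ERK phosphorylates transcription factors of the ETS and AP-1 families, and among the genes that rise are inhibitors of the cascade itself. DUSP4, DUSP5 and DUSP6 are phosphatases that remove the activating phosphates from ERK, the Sprouty proteins SPRY2 and SPRY4 and the SPRED proteins act upstream between receptor and RAF, ETV4 and ETV5 are ETS factors, and PHLDA1 is a small pleckstrin-homology-like protein.

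Messenger RNA was read with PLATE-Seq, in which an oligo(dT) primer with a well barcode marks the RNA of each well of a 96-well plate and the 3′ ends of transcripts are sequenced in a pool. U87, an established glioma line, was treated for 24 h in 2 sets of 92 compounds, each compound in 1 well on both plates of its set (plates 1A and 1B, or 4A and 4B), with 2 DMSO and 2 untreated wells on each of the 4 plates. BT20, an established breast carcinoma line, received DMSO or 1 of 7 drugs for 6 h in 12 wells each on 1 plate, and material of the same wells was also sequenced as 16 TruSeq pools of 6 wells, 2 pools per condition. LnCAP, an established prostate adenocarcinoma line, was left untreated on plates A1 and A2, 96 wells each, which hold parts of the same lysates. In the paper 1 part of a lysate went to the oligo(dT) capture plate and the other to column and oligo(dT) bead isolation. The 5 MEK inhibitors on U87 were cobimetinib at 0.5 µM, trametinib at 0.036 µM, pimasertib at 0.911 µM, refametinib at 2.289 µM and TAK-733 at 0.268 µM. The 5 RAF inhibitors were dabrafenib at 1.6 µM, vemurafenib at 6.5 µM, sorafenib at 4.9 µM, regorafenib at 5.2 µM and RAF265 at 4.944 µM. The 6 inhibitors of ERBB receptors were afatinib at 0.187 µM, erlotinib at 3.4 µM, gefitinib at 0.571 µM, lapatinib at 10 µM, osimertinib at 1.6 µM and varlitinib at 5.775 µM. BT20 received mitoxantrone at 0.18 µM, crizotinib at 7.16 µM, albendazole at 0.56 µM, idarubicin at 0.084 µM, aprepitant at 2 µM, gemcitabine at 0.194 µM or bortezomib at 0.044 µM. Each U87 library was made from the lysates of 2 culture wells, and all wells of a line come from that single line, so p-values measure the spread between wells and not between independent cultures or donors.

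Levels are given as CPM, counts per 1000000 of a library's total, which follow messenger RNA molecules rather than transcript length in 3′-end data. Totals of the U87 wells ran from 17063 to 1537549 with a median of 652273, and the 48 wells of the 3 inhibitor classes and controls held 356330 to 1283986 counts. In all, 21 U87 wells held under 0.5 of their plate's median total, none of them in a class or a control. The BT20 plate ran from 367848 to 1317952 counts per well, LnCAP plates A1 and A2 from 197361 to 780566 and from 19448 to 1277169, and the TruSeq pools from 16881740 to 29068232. A single count is therefore above 1 CPM in most wells, and members at a few CPM rest on a handful of counts. The prostate gene KLK3 averaged 893 CPM in LnCAP and 0 in the other lines, KRT5 and EPCAM averaged 2061 and 264 CPM in BT20, and VIM averaged 2415 CPM in U87. The glial marker GFAP was at 0 in the U87 DMSO wells and averaged 0.591 CPM in the untreated wells.

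The bases before the start site are shown for 3 members that fell under MEK inhibition, because ETS factors bind a GGAA core and are targets of ERK. The sequences come from RefSeq on GRCh38.p14, cover the 250 bases before the start, read 5′ to 3′ along the gene, and carry GGAA on either strand (GGAA or TTCC) in capitals. They are DUSP6 at chr12:89352502-89352751 on the minus strand, PHLDA1 at chr12:76031777-76032026 on the minus strand and SPRY4 at chr5:142324248-142324497 on the minus strand.
DUSP6: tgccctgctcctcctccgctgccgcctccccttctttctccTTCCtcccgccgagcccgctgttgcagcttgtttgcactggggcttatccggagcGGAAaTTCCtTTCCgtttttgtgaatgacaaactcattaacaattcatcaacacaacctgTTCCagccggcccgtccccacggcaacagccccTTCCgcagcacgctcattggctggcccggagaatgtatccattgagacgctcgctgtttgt
PHLDA1: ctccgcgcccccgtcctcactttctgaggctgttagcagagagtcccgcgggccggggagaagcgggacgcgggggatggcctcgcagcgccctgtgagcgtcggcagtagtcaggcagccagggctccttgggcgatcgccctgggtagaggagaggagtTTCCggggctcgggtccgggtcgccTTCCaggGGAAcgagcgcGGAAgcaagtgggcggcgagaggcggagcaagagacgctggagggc
SPRY4: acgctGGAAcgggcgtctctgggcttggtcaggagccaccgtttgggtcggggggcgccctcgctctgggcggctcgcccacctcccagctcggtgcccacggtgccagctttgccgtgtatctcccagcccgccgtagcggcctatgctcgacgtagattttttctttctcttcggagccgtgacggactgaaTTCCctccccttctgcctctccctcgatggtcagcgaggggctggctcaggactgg
DUSP6 carried 6 GGAA matches, and 9.14% of 35116 promoters of this length held as many. PHLDA1 carried 4, a number reached by 34.3% of promoters, and SPRY4 carried 2, reached by 76.5%. GGAA itself was present in 92.7% of promoters, so a match is a description of these letters and marks no bound site.

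On GRCh37 (hg19), the build the reads were mapped to, DUSP6 lies on chromosome 12 from 89741012 to 89746278 and PHLDA1 on the same chromosome from 76419227 to 76425556. DUSP4 lies on chromosome 8 from 29190581 to 29208201, DUSP5 on chromosome 10 from 112257665 to 112271291, SPRY2 on chromosome 13 from 80910111 to 80915261 and SPRY4 on chromosome 5 from 141689992 to 141706020. SPRED1 spans 38545037 to 38649450 on chromosome 15, SPRED2 65537985 to 65659771 on chromosome 2, ETV4 41605212 to 41656988 on chromosome 17 and ETV5 185764103 to 185828107 on chromosome 3. Only DUSP5 and SPRED1 are on the plus strand.

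Which of these genes moved when MEK was inhibited was asked in U87, with 10 wells of 5 MEK inhibitors against 8 DMSO wells and the plate as a block. Each compound had its own term in the fit, and a class was the mean of its compounds' terms. Standard errors and p-values of a class therefore measure the spread between wells of a compound or control, not between compounds. Of the 10 genes, 9 had enough counts to be tested and 8 fell, while none rose. For comparison, 12.7% of the 9306 genes tested were lower and 9.93% were higher in the MEK inhibitor wells (edgeR quasi-likelihood test, adjusted p under 0.05). DUSP6, DUSP4 and PHLDA1 fell in every one of the 10 wells relative to both the DMSO and the untreated wells of the same plate. At most 2.75% of all genes tested did so, the share with all 10 wells below both DMSO wells of their plate. Summed over the 10 genes, the MEK inhibitor wells held 65.1 to 348 CPM with a median of 215, and the DMSO wells 390 to 875 with a median of 770. The median log2 fold change was -1.52 over the 9 members and -0.04 over all genes tested. Since the wells were measured in bulk, fewer cells that express a gene and less of its RNA per cell cannot be told apart.

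Among the ERK phosphatases, DUSP6, which is cytoplasmic and acts on ERK itself, moved furthest. The DMSO wells of plates 1A, 1B, 4A and 4B held 114.5 and 154.7, 304 and 306, 249 and 275, and 160.6 and 130.1 CPM of DUSP6. Cobimetinib wells held 9.48 and 44.4 CPM of DUSP6, trametinib wells 22.5 and 18.9, pimasertib wells 30.5 and 5.61, refametinib wells 4.31 and 6.38, and TAK-733 wells 23.0 and 27.5. The groups did not overlap, and the highest MEK inhibitor well was below every DMSO and untreated well, the untreated wells running from 140.2 to 470 CPM with a median of 299. The log2 fold change of DUSP6 was -3.57 with a standard error of 0.17 (edgeR adjusted p = 2.869e-29), and it was the 7th largest fall of all genes tested.

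DUSP4, a nuclear phosphatase of ERK and other MAP kinases, held a median of 44.2 CPM in the DMSO wells and ran from 17.5 to 67.9. The cobimetinib wells held 8.30 and 17.9 CPM of DUSP4, trametinib 9.83 and 15.1, pimasertib 9.52 and 5.61, refametinib 3.23 and 6.38, and TAK-733 6.05 and 0. The 2 groups touched only at the cobimetinib well of plate 1B, which at 17.9 CPM lay beside the lowest DMSO well of plate 4B at 17.5. DUSP4 fell by 2.43 on the log2 scale with a standard error of 0.26 (edgeR adjusted p = 1.419e-13). DUSP5, a nuclear phosphatase that binds ERK, ran from 11.5 to 36.5 CPM with a median of 19.8 in the MEK inhibitor wells and from 18.8 to 56.1 with a median of 34.7 in the DMSO wells. These groups overlapped, 9 of 10 wells were below both DMSO wells of their plate, and the log2 difference of -0.51 with a standard error of 0.22 did not pass the test (edgeR adjusted p = 0.0748).

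**Figure D1:**
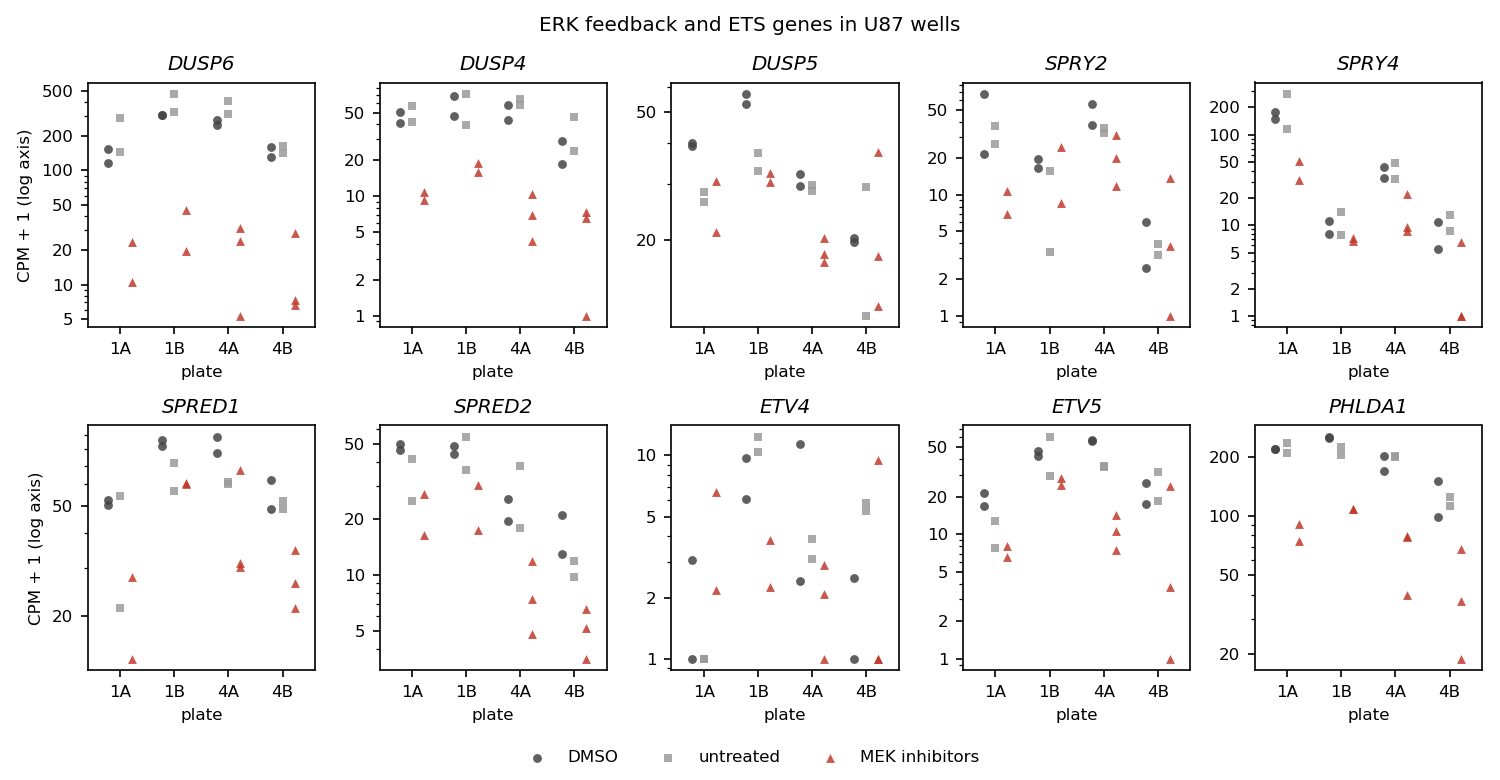
Level of each gene in U87 by plate (x axis) as CPM + 1 on a log axis; dots are DMSO wells, squares untreated wells and triangles the wells of 5 MEK inhibitors. For DUSP6 the MEK inhibitor wells lie at 4.31 to 44.4 CPM, below the DMSO wells at 114.5 to 306, and SPRY4 shows plates that differ widely before any drug is considered.

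The inhibitors that act between receptor and RAF fell as well, from levels that differed between plates. SPRY4 is the clearest case, with DMSO wells at 177.4 and 146.4 CPM on plate 1A, 10.2 and 6.96 on 1B, 32.4 and 42.5 on 4A, and 4.46 and 10.0 on 4B. Over all wells of a plate, drugs included, the median of SPRY4 was 178.8, 10.2, 26.0 and 5.60 CPM on the same plates. DMSO wells thus differed more between plates than within one, and SPRY4 values are readable only within a plate.

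Within plates, SPRY4 held 49.8 and 5.67 CPM under cobimetinib, 30.9 and 6.29 under trametinib, 21.0 and 5.61 under pimasertib, 7.54 and 0 under refametinib, and 8.47 and 0 under TAK-733. In 9 of 10 wells this was below both DMSO wells and both untreated wells of the plate. With the plate as a block SPRY4 fell by 1.74 on the log2 scale with a standard error of 0.27 (edgeR adjusted p = 1.682e-07), and without the block the call was lost, at -2.28 (adjusted p = 0.2365). SPRY2 ran from 0 to 30.3 CPM with a median of 10.3 in the MEK inhibitor wells and from 1.49 to 67.4 with a median of 19.7 in the DMSO wells. Its groups overlapped throughout, 7 of 10 wells were below both DMSO wells of the plate, and the fall of 1.05 with a standard error of 0.34 passed by a small margin (edgeR adjusted p = 0.01549). The SPRY2 call was lost under 9 of 22 alternative settings, with an adjusted p of up to 0.3149.

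SPRED1 and SPRED2, which bind RAS and RAF and recruit neurofibromin, were both below the 2 DMSO wells of the plate in all 10 MEK inhibitor wells. SPRED2 ran from 2.55 to 29.3 CPM with a median of 8.68 against 11.9 to 49.4 with a median of 34.0 in DMSO. It fell by 1.52 with a standard error of 0.29 (edgeR adjusted p = 1.188e-05), and it was below all 4 controls of its plate in 9 of 10 wells. SPRED1 ran from 13.0 to 66.7 CPM with a median of 29.7 against 47.6 to 88.0 with a median of 68.9 in DMSO. Its fall was 0.91 with a standard error of 0.18 (edgeR adjusted p = 1.718e-05), but the untreated wells, at 20.4 to 70.3 CPM, reached into the same range and only 6 of 10 MEK inhibitor wells were below all 4 controls. Of all genes tested, 256, or 2.75%, had every MEK inhibitor well below both DMSO wells of its plate, and 5 members (DUSP4, DUSP6, SPRED1, SPRED2 and PHLDA1) were among them.

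Of the ETS factors, ETV5 fell, and ETV4 was removed by the filter on low counts. ETV5 held 7.11 and 27.4 CPM under cobimetinib, 5.61 and 23.9 under trametinib, 13.3 and 2.81 under pimasertib, 6.46 and 0 under refametinib, and 9.68 and 23.3 under TAK-733, against 15.7 to 55.6 CPM in the DMSO wells. Levels overlapped across plates but 9 of 10 ETV5 wells were below both DMSO wells of their own plate. The log2 fold change of ETV5 was -1.70 with a standard error of 0.27 (edgeR adjusted p = 3.106e-07). ETV4 held only 15 counts over the 10 MEK inhibitor wells and 19 over the 8 DMSO wells, at 0 to 8.46 and 0 to 10.4 CPM, and a difference was not detectable at this depth. Without the filter it was tested and not called, at a log2 difference of -0.85 (edgeR adjusted p = 0.607).

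PHLDA1, whose product restrains receptor and AKT signalling, fell in every well. Its DMSO wells ran from 98.2 to 252 CPM with a median of 209, and the MEK inhibitor wells from 17.9 under refametinib to 107.7 under cobimetinib with a median of 75.5. The ranges overlapped only where inhibitor wells of plate 1B, at 106.9 and 107.7 CPM, met a DMSO well of plate 4B at 98.2, and within plates all 10 wells were below all 4 controls. PHLDA1 fell by 1.47 with a standard error of 0.12 (edgeR adjusted p = 1.85e-19). Doses differed between the 5 inhibitors, so their values stand side by side and were not compared with each other.

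Other genes known as ERK outputs were read in the same wells. Their list was chosen with earlier results of these data known, so the counts are a description and no independent test. Of its 35 genes 29 were tested, of which 16 fell, 2 rose and 11 did not pass, where 12.7% of all genes fell and 9.93% rose. The median log2 fold change over the 29 genes was -0.70. LIF, a cytokine, ran from 11.5 to 327 CPM with a median of 70.6 against a DMSO median of 283, and fell by 1.37 (adjusted p = 4.781e-18). CCND1, the cyclin that drives entry into the cell cycle, fell by 0.91 (adjusted p = 5.166e-14), from a DMSO median of 293 CPM to 175.5. FOSL1, an AP-1 subunit stabilised by ERK, fell by 0.88 (adjusted p = 1.858e-13), from 293 to 131.1. The immediate early gene EGR1 fell by 2.28 (adjusted p = 5.216e-09), from 21.6 to 5.66. SLCO4A1, an organic anion transporter, fell by 3.75 (adjusted p = 1.001e-12), from 25.2 CPM to 1.84, and FXYD5, a regulator of the sodium pump, by 0.79 (adjusted p = 2.29e-17), from 891 CPM to 522. The listed genes that rose were S100A6, a calcium-binding protein, by 0.42 (adjusted p = 5.083e-10) and LGALS3, a galectin, by 0.83 (adjusted p = 3.937e-08).

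Components of the cascade itself were read from a second list, also chosen with earlier results known. Of its 21 genes for receptors' adaptors, RAS, RAF, MEK and ERK proteins 19 were tested, 3 rose, 1 fell and 15 did not pass, with a median log2 fold change of 0.09, where 9.93% of all genes rose and 12.7% fell. SOS1, the exchange factor that loads RAS, ran from 16.6 to 72.4 CPM with a median of 27.2 against 7.50 to 26.9 with a median of 18.3 in DMSO. It rose by 0.98 (adjusted p = 0.002704) and the adaptor GRB2 by 0.32 (adjusted p = 0.03817). HRAS, named here after its values were seen, fell by 0.43 (adjusted p = 0.02143). Adjusted p-values in these 2 lists are those of the edgeR fit over all 9306 genes.

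Whether inhibitors above MEK moved the same genes was asked with the RAF and ERBB classes, which share the DMSO wells with the MEK class. Against DMSO the 10 RAF inhibitor wells gave 1 called member of 9, DUSP6, where 2.15% of all genes were lower and 1.28% higher. Its wells ran from 42.6 to 532 CPM with a median of 108.7. Averaged over the compounds DUSP6 was lower by 0.62 with a standard error of 0.14 (edgeR adjusted p = 0.003022), which does not measure the spread between compounds. The compounds went opposite ways, with 42.6 and 73.1 CPM of DUSP6 under regorafenib and 70.1 and 87.5 under sorafenib, against 267 and 532 under vemurafenib, where the DMSO wells of the 2 plates held 114.5 and 154.7, and 304 and 306. The RAF call of DUSP6 was lost without the plate block, without sorafenib and without regorafenib. SPRY2 at -0.76 (adjusted p = 0.2669), PHLDA1 at -0.33 (adjusted p = 0.1072) and ETV5 at 0.39 (adjusted p = 0.5117) did not pass, and the median over the 9 members was -0.21 against -0.04 for all genes. SPRED1 was below both DMSO wells of its plate in all 10 RAF inhibitor wells, yet its log2 difference was only -0.21 and was not called.

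In the 12 ERBB inhibitor wells none of the 9 members was called, and 0 had an unadjusted p under 0.05 with edgeR, while 1.06% of genes were lower and 0.537% higher. DESeq2 called 0 members and 200 genes, and 1055 genes had an unadjusted p under 0.05 with edgeR. DUSP6 ran from 82.8 to 343 CPM with a median of 184, a log2 difference of -0.24 (edgeR adjusted p = 0.5185), and PHLDA1 differed by -0.20 (edgeR adjusted p = 0.5193). Within plates PHLDA1 was below both DMSO wells in 10 of the 12 wells and above both in 0. DUSP6 was below both in 7 wells and above both in 2. The median over the 9 members was -0.12 against -0.04 for all genes.

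The difference between classes was then tested directly. Against the ERBB class, 8 of 9 members were lower in the MEK class where 10.5% of all genes were lower and 10.2% higher, and the median difference over the members was -1.65. DUSP6 differed by -3.33 with a standard error of 0.17 (edgeR adjusted p = 6.505e-27), DUSP4 by -2.31, SPRY4 by -1.81, ETV5 by -1.71, SPRED2 by -1.65, PHLDA1 by -1.27 and SPRED1 by -0.71. DUSP5, not called against DMSO, was lower than in the ERBB class by 0.72 with a standard error of 0.21 (edgeR adjusted p = 0.008688), where its ERBB value against DMSO was 0.20. SPRY2 did not differ past the threshold (-0.51, adjusted p = 0.3502). Against the RAF class 7 members were lower in the MEK class, where 9.95% of all genes were lower and 9.68% higher, with DUSP6 at -2.95 (standard error 0.19, edgeR adjusted p = 1.433e-22), DUSP4 at -2.28 and ETV5 at -2.09. SPRY2 at -0.29 (adjusted p = 0.6669) and DUSP5 at -0.42 (adjusted p = 0.1996) were not called.

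**Figure D2:**
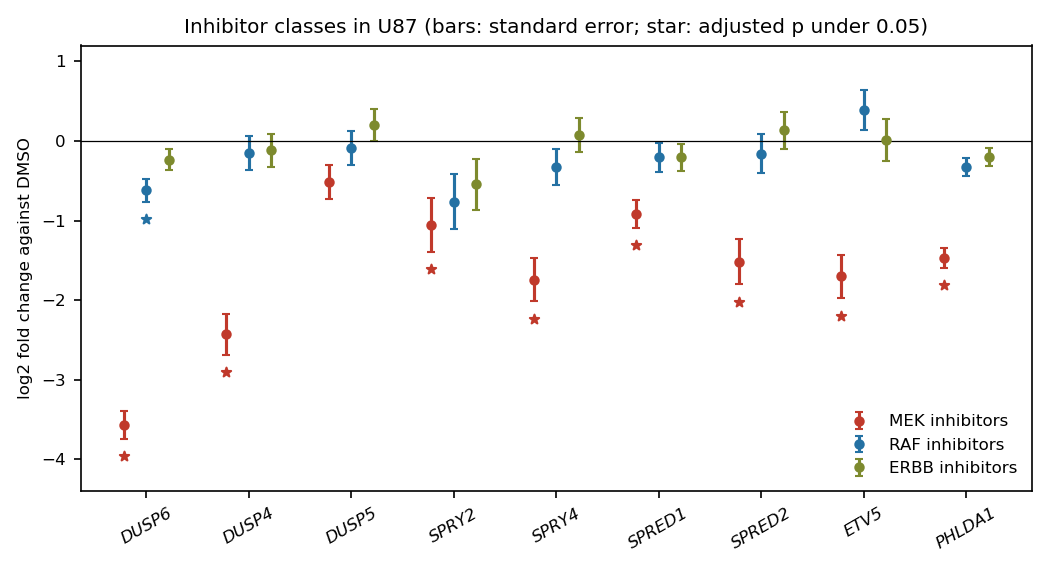
Log2 fold change against DMSO (y axis) of the 9 tested members in U87 under the MEK (10 wells), RAF (10 wells) and ERBB (12 wells) inhibitor classes; bars are standard errors and stars mark an edgeR adjusted p under 0.05. MEK inhibitor values run from -3.57 for DUSP6 to -0.51 for DUSP5, and only DUSP6 is starred in the RAF class.

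The solvent itself was compared with no treatment on the same plates. Of the 9 members DUSP6 alone was called, at a log2 fold change of -0.46 in DMSO (standard error 0.13, edgeR adjusted p = 0.02641), with 1.93% of genes higher and 2.53% lower in DMSO. DUSP6 ran from 114.5 to 306 CPM with DMSO and from 140.2 to 470 without, so the groups overlapped, and the call was lost without the plate block.

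Each of the 184 compounds was also fitted on its own, 2 wells against the 4 DMSO wells of its plates, with the 4 untreated wells adding to the estimate of spread, which gave 9 tests of members per compound. There was 1 call in 15 compounds, 2 or more in 17 and none in the rest. Over all 1656 pairs of member and compound 54 were lower and 22 were higher, where 1.35% of all gene and compound pairs were lower and 1.3% higher. The 5 MEK inhibitors gave 26 of the 54 lower calls and no higher one. Compounds of a set share their DMSO wells.

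Refametinib lowered 8 members (6.89% of its genes were lower), trametinib 5 (3.24%), TAK-733 5 (3.73%), pimasertib 4 (5.11%) and cobimetinib 4 (1.83%). Some of these calls include a well at 0 counts on plate 4B. Set to 3 counts in the library, refametinib was at least 5.40-fold lower than DMSO for ETV5 and 1.89-fold for SPRY4. For SPRY2 the DMSO mean was itself below this floor. TAK-733 was at least 3.61-fold lower for DUSP4 and 1.14-fold for SPRY4. DUSP4, DUSP6 and PHLDA1 were called lower in all 5. The log2 fold change of DUSP6 was -5.11 with refametinib (edgeR adjusted p = 1.298e-10), -3.46 with pimasertib (1.432e-08), -3.31 with trametinib (1.898e-08), -3.01 with TAK-733 (1.081e-07) and -3.01 with cobimetinib (2.34e-07). SPRY4 was lower in 4 MEK inhibitors and in no other compound, and ETV5 was lower in refametinib and pimasertib only. Without the plate block fewer members were called, from 1 each with cobimetinib and pimasertib to 5 with refametinib, and with 1 of the 2 drug wells left out they were 1 to 2 with pimasertib, 2 to 4 with cobimetinib and 3 to 4 with trametinib, TAK-733 and refametinib. The SPRY4 call was lost without the first well in all 4 compounds that gave it, and the ETV5 call of pimasertib without either well. The DUSP6 call of each MEK inhibitor held in all these fits.

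Most other compounds with several lowered members also changed much of the transcriptome or held shallow wells. Romidepsin, a histone deacetylase inhibitor, lowered 5 members and raised 1 where 16.8% of genes were lower and 16% higher, and doxorubicin lowered 4 where 5.51% were lower. Mithramycin A, which binds GC-rich DNA, lowered 3 with 12.2% of genes lower, and fludarabine lowered 3 with 9.82%. Belinostat, also a histone deacetylase inhibitor, lowered 2 members and raised 1 where 10.8% of genes were lower and 9.44% higher, and bortezomib lowered 2 and raised 1 where 9.53% were lower and 8.66% higher. Romidepsin, doxorubicin, belinostat and fludarabine each had a well of low depth, and in fludarabine the median of all genes was shifted by -0.52 on the log2 scale. Fludarabine wells held 0 and 2 counts of DUSP6, at least 3.45-fold lower than DMSO on plate 1A when a count of 0 is set to 3 counts in that library. Many of these calls rest on 1 well. All 4 doxorubicin calls (DUSP4, DUSP6, SPRY2 and PHLDA1) were lost without its first well, and those of DUSP4, DUSP6 and PHLDA1 also without its second. With bortezomib DUSP4 and DUSP5 were lost without either well and DUSP6 without the second, and all 3 without the block. Without the first well romidepsin lost DUSP6, SPRY2, SPRED1 and SPRED2, mithramycin A lost DUSP4 and SPRED2, fludarabine lost PHLDA1 and SPRED1, and belinostat lost SPRY2 and SPRED1. Regorafenib lowered 3 members (DUSP6, DUSP5 and PHLDA1) where 0.889% of its genes were lower.

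Averaged over the 9 members, the log2 difference from the DMSO wells of the plate put the MEK inhibitors at the low end of both sets. In set 1 trametinib at -1.47 and cobimetinib at -1.40 were lowest of 92, and the 90 other compounds ran from -0.95 to 0.21 with a median of -0.22. In set 4 refametinib at -2.42, TAK-733 at -1.40 and pimasertib at -1.21 were lowest, and the 89 others ran from -0.78 to 1.13 with a median of -0.11. Without compounds that had a well of low depth the others ran from -0.79 to 0.21 and from -0.78 to 0.37. The lowest of these remaining compounds were regorafenib at -0.79 and Sofrastaurin at -0.78, and the highest in set 4 was varlitinib at 0.37, above resminostat at 0.31. In set 1 the highest were panobinostat at 0.21, vorinostat and paclitaxel at 0.11, bleomycin at 0.10 and vemurafenib at 0.09. The low end of set 1 also held fludarabine at -0.95 and romidepsin at -0.78, and the high end of set 4 a CDC25 inhibitor at 1.13, CELASTROL at 1.03 and tirapazamine at 0.97, all 5 with a well of low depth. These means are descriptions, and with 2 CPM added before the log in place of 1 count the shallow fludarabine wells moved to the lowest place of set 1 at -2.05.

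**Figure D3:**
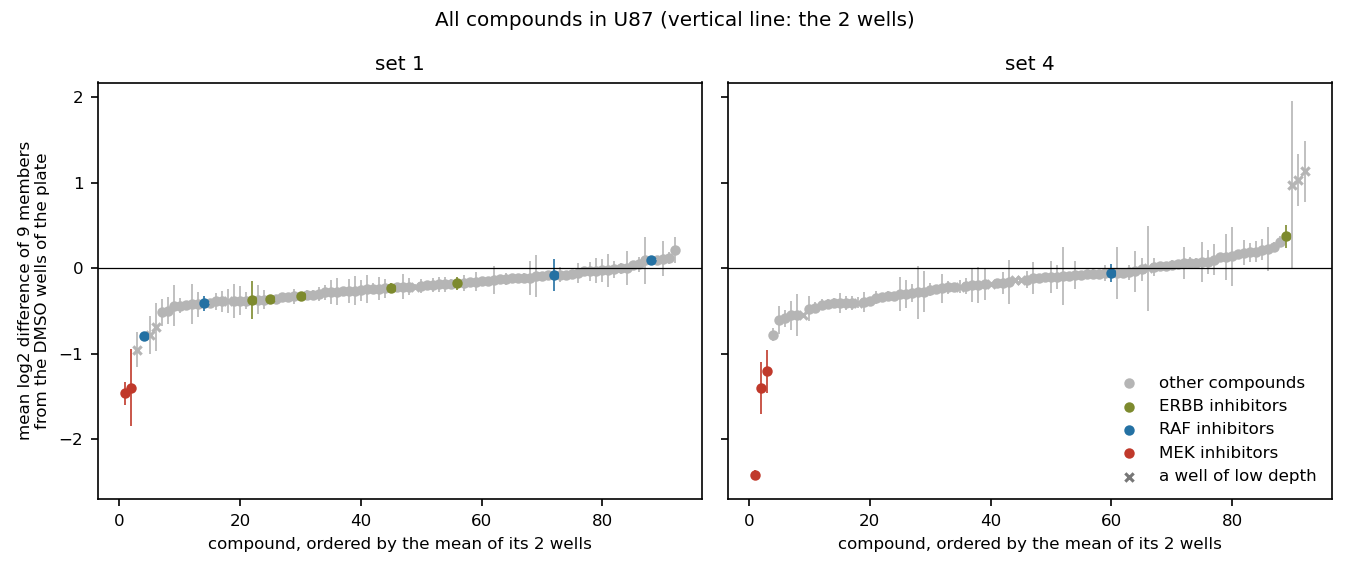
Mean log2 difference of the 9 members from the DMSO wells of the plate (y axis) for the 92 compounds of each set, ordered on the x axis; a point is the mean of 2 wells, the vertical line joins them, colours mark the 3 inhibitor classes and crosses a compound with a well of low depth. The 5 MEK inhibitors are the lowest points, from -1.21 to -2.42, and the 3 highest points of set 4 hold wells of low depth.

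Member by member, the phosphatases were called in opposite directions by different compounds. Of 184 compounds, DUSP6 was called lower by 15 and higher by 6, DUSP4 lower by 8 and higher by 1, and DUSP5 lower by 1 and higher by 8. Over all gene and compound pairs 1.35% were lower and 1.3% higher, and the counts were not tested against these shares. DUSP5 rose furthest with romidepsin, whose wells held 287 and 362 CPM against 38.2 and 39.2, and 56.1 and 52.2 in DMSO, a log2 fold change of 2.91 (edgeR adjusted p = 6.686e-14). With belinostat DUSP5 held 217 and 275 CPM and rose by 2.53 (6.842e-09), and with ryuvidine it held 202 and 104.1 CPM against 31.2 or less in DMSO and rose by 2.65 (1.249e-06), where 5.73% of genes were higher. IKK 16 gave 116.97 and 55.5 CPM of DUSP5, a rise of 1.85 (0.002558), where 1.81% were higher. The single lower call of DUSP5 was regorafenib, at 14.2 and 15.0 CPM and -1.66 (0.04056). The calls of DUSP5 with romidepsin, belinostat and ryuvidine held with either well left out and without the block, that with IKK 16 was lost without its first well (1.59, adjusted p = 0.1512) and that with regorafenib without either (adjusted p = 0.2853 and 0.4491), and both were lost without the block (adjusted p = 0.07626 and 0.5537).

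Outside MEK, DUSP6 was lowest with mithramycin A among compounds with no well of low depth, at 44.4 and 71.3 CPM and a log2 fold change of -1.90 (edgeR adjusted p = 7.161e-06). Regorafenib followed at -1.89 (3.49e-05) and sorafenib at -1.41 (0.003967), where 0.557% of genes were lower. The largest rise of DUSP6 was 1.23 with resminostat, a histone deacetylase inhibitor, at 509 and 329 CPM (1.42e-05), where 7.4% of genes were higher, and vemurafenib raised it by 0.91 (0.01308), where 0.904% were. The vemurafenib call was lost when either well was left out and without the block, the sorafenib call without its second well and without the block, and the regorafenib and resminostat calls only without the block.

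Calls of the Sprouty and SPRED genes and of PHLDA1 are given beside the shares over all gene and compound pairs, 1.35% lower and 1.3% higher. SPRED2 was called lower by 4 compounds, 2 of them MEK inhibitors, SPRED1 by 5, 2 of them MEK inhibitors, and neither was called higher by any. SPRY2 was called lower by 5 compounds, 1 of them a MEK inhibitor, and higher by 4, and it was at 0 counts in both wells of romidepsin and of belinostat. Set to 3 counts per library, this is at least 3.93-fold and 2.09-fold lower than DMSO on the 2 plates for romidepsin and at least 2.71-fold and 1.19-fold for belinostat. Teniposide lowered SPRY2 by 2.14, where 3.8% of genes were lower. The 4 higher calls of SPRY2 include tivozanib, a VEGF receptor inhibitor, where 1 well held 225 CPM and the other 6.13, a log2 fold change of 2.08 (edgeR adjusted p = 0.003073), with 0.394% of genes higher. SPRY4 rose with pirarubicin by 1.96, where 0.591% of genes were higher, and with cytarabine by 1.23, where 0.492% were, at 378 and 16.9 CPM against 177.4 and 146.4, and 10.2 and 6.96 in DMSO. PHLDA1 was called lower by 10 compounds, 5 of them MEK inhibitors, including ponatinib at 122.1 and 134.2 CPM and -0.75, where 0.338% of genes were lower, and higher by OTX015, a BET bromodomain inhibitor, at 0.67, where 7.89% were higher. The calls of SPRY2 with teniposide, of SPRY4 with cytarabine and pirarubicin and of PHLDA1 with ponatinib, regorafenib and OTX015 were lost with either well left out, and that of SPRY2 with tivozanib without the well at 225 CPM (1.05, adjusted p = 0.7815).

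Across the 92 compounds of a set, each member was set against the mean of the other members, with Spearman's rho as a description, since wells of a plate share depth and DMSO wells. DUSP6, at 0.52 in set 1 and 0.53 in set 4, and PHLDA1, at 0.54 and 0.42, were the highest in both sets. DUSP4 was at 0.42 and 0.32, and SPRY2 at 0.40 in set 4. ETV5 at 0.15 and SPRY2 at 0.16 were lowest in set 1, and SPRED1 at 0.15 was lowest in set 4. Among 4079 other genes, those with the pattern most like the members' mean in both sets were IL1B (0.45 and 0.43), the ETS factor ETV1 (0.45 and 0.43), ITGA2 (0.58 and 0.41), STC1 (0.41 and 0.42) and ERRFI1 (0.39 and 0.41), a feedback inhibitor of the EGF receptor. With Pearson's r in place of rho 2 of these 5, IL1B and ETV1, were again among the 5 most alike.

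In BT20 no MEK inhibitor was used, and the drug effects after 6 h were read in TruSeq pools, where all 10 members and 14970 genes were tested with 2 pools against 2. These pools hold material of the same wells as the plate, so both readouts come from the same cells. Over 7 drugs 28 calls were made on members, where 12.2% of all gene and drug pairs were higher and 11.2% lower. Crizotinib, an inhibitor of MET and ALK, raised 5 members where 21.6% of genes were higher and lowered 3 where 20.6% were lower.

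DUSP4 held 119.99 and 119.3 CPM in the DMSO pools, 214 and 226 with crizotinib and 75.9 and 72.1 with bortezomib, a proteasome inhibitor. It rose by 0.92 on the log2 scale with crizotinib (edgeR adjusted p = 7.709e-17) and fell by 0.62 with bortezomib (6.824e-13). PHLDA1 held 142.7 and 136.6 CPM with DMSO and 233 and 225 with crizotinib, a rise of 0.75 (6.462e-14), and it held 102.3 and 111.3 with bortezomib and 89.6 and 92.9 with idarubicin, falls of 0.32 (3.696e-06) and 0.63 (5.141e-12). The 2 pools of a condition lay close together and apart from DMSO for both genes. Crizotinib lowered SPRED1 from 53.7 and 49.4 CPM to 42.4 and 37.1, a log2 fold change of -0.34, and ETV4 from 49.0 and 48.1 to 36.7 and 40.0, at -0.30. Its smaller calls, SPRY4 at 0.29, DUSP5 at 0.27 and SPRED2 at -0.17, were each lost when a pool was left out.

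Bortezomib raised 3 members where 21.3% of genes were higher and lowered 2 where 19.6% were lower. SPRY4 rose from 7.82 and 8.01 CPM to 21.2 and 21.6, by 1.51 (edgeR adjusted p = 1.214e-14), and ETV5 from 89.8 and 86.8 to 111.4 and 115.2, by 0.43 (1.345e-08). DUSP6, the lowest member in these pools at 1.87 and 1.77 CPM, rose to 3.63 and 4.76, by 1.27 (1.587e-06). DUSP6 also rose with crizotinib, to 2.72 and 3.69 CPM, by 0.86 (0.001714), a call that was lost without the second crizotinib pool (0.62, adjusted p = 0.09078).

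Idarubicin and mitoxantrone are topoisomerase poisons. Idarubicin lowered 5, where 18.4% of genes were lower, PHLDA1 by 0.63 and DUSP5 by 0.45, whose pools held 14.7 and 17.9 CPM against 22.2 and 21.6. Mitoxantrone lowered 3 of 10 members with edgeR and 2 with DESeq2, where 15.1% of genes were lower with edgeR. It raised SPRY4 by 0.47 to 12.0 and 10.6 CPM, where 15.6% were higher. These counts were not tested against the shares of all genes. Some lower calls of each of these 2 drugs, but not all, were lost when a pool was left out. Albendazole, which binds tubulin, lowered 4 (DUSP5, SPRED1, SPRED2 and ETV5, by 0.35, 0.27, 0.18 and 0.16) where 4.3% of genes were lower, and each of these calls was lost when a pool was left out. Aprepitant, a neurokinin receptor antagonist, lowered DUSP5 by 0.34 and SPRED1 by 0.32 where 0.601% of genes were lower, and both calls were lost when a pool was left out. Gemcitabine gave 0 calls on members and 0% over all genes with edgeR, with 2 members at an unadjusted p under 0.05 and 0 called by DESeq2.

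**Figure D4:**
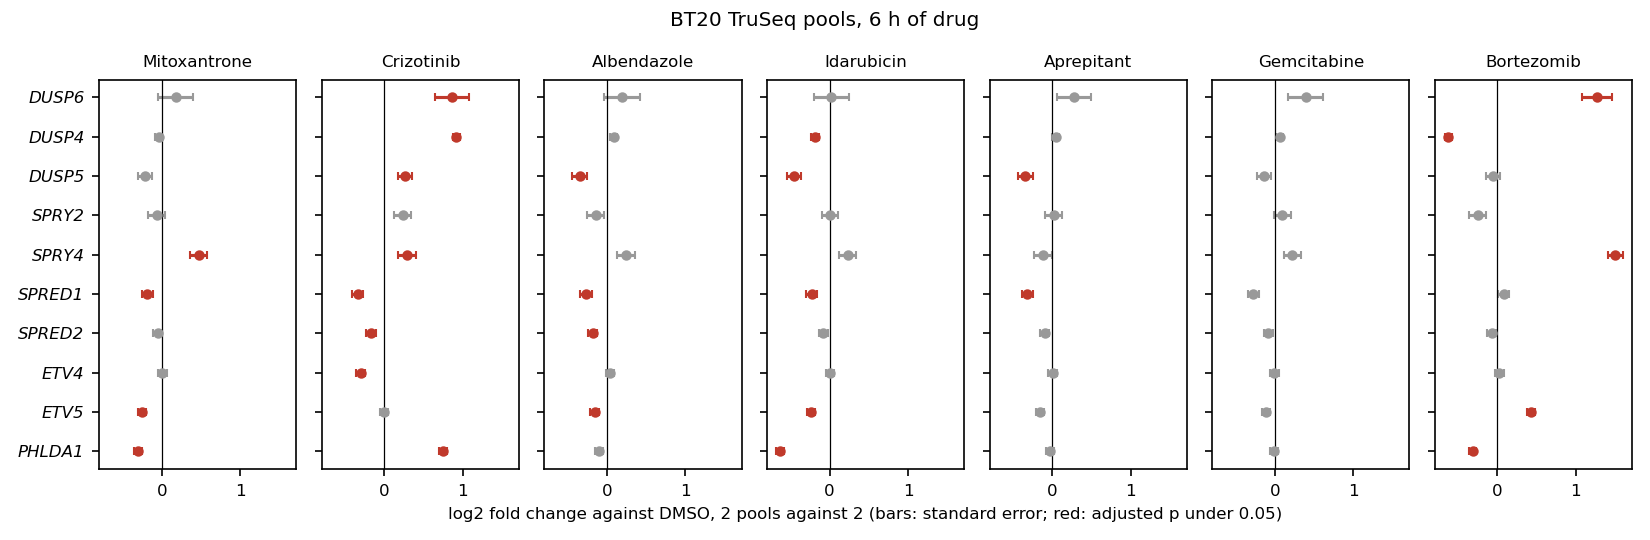
Log2 fold change against DMSO (x axis) of the 10 members in BT20 for 7 drugs, 2 TruSeq pools of 6 wells against 2; bars are standard errors and red points have an edgeR adjusted p under 0.05. Crizotinib and bortezomib move DUSP4 in opposite directions, to 0.92 and -0.62, and the gemcitabine panel has no red point.

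The 12 single wells of each drug on the BT20 plate carried fewer counts, and 5 or 6 members could be tested. DUSP4 ran from 55.6 to 128.3 CPM with a median of 84.4 in DMSO, from 113.3 to 211 with a median of 168.3 under crizotinib and from 27.0 to 77.4 with a median of 54.5 under bortezomib. With crizotinib 10 of 12 wells were above every DMSO well, and with bortezomib 6 of 12 were below every DMSO well. DUSP4 rose by 0.89 (standard error 0.14, edgeR adjusted p = 3.378e-06) where 1.09% of genes were higher, and fell by 0.64 (standard error 0.18, adjusted p = 0.01764) where 1.97% were lower. No member was called by edgeR or by DESeq2 with the other 5 drugs, 1 each with mitoxantrone and aprepitant having an unadjusted p under 0.05. The shares of all genes higher and lower were 0.159% and 1.05% with mitoxantrone, 0.0835% and 0.0167% with albendazole, 0.85% and 1.93% with idarubicin and 0% with aprepitant and gemcitabine. Over all 7 drugs 0.731% of gene and drug pairs were higher and 0.854% lower.

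The lines differed widely in these genes before any drug. The 10 members summed to 704 ± 185.9 CPM in U87 with DMSO (SD, n = 8), 230.0 ± 34.5 in BT20 with DMSO (SD, n = 12) and 38.0 ± 13.4 in LnCAP (SD over all wells). Each line was grown, plated and sequenced on plates of its own, so line and plate cannot be told apart and the levels were not tested. The LnCAP SD pools plates A1 and A2, so it mixes the mRNA isolation with the spread of wells and enters each lysate on both plates. Over the symbols common to all tables and without the 6 most abundant, the BT20 sum was 387 CPM.

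DUSP6 had the widest ratio of means between lines, at 212 ± 80.0 CPM in U87 (SD, n = 8), 0.33 ± 0.64 in BT20 (SD, n = 12) with 9 of 12 wells at 0, and 0.54 ± 1.41 in LnCAP (SD) with 81 of 96 wells at 0 on plate A1 and 75 of 96 on A2. BT20 and LnCAP did not differ in DUSP6 beyond their spread. DUSP4 had the reverse order of U87 and BT20, with 86.1 ± 23.4 CPM in BT20, 43.6 ± 15.7 in U87 and 16.8 ± 10.4 in LnCAP (SD). DUSP5 followed the order of the sum, at 35.4 ± 13.8 in U87, 9.92 ± 6.83 in BT20 and 3.27 ± 3.72 in LnCAP.

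PHLDA1 was at 194 ± 52.2 CPM in U87, 45.7 ± 13.2 in BT20 and 1.24 ± 2.18 in LnCAP (SD). SPRED1 was at 67.6 ± 17.0, 16.3 ± 8.62 and 4.49 ± 4.27 CPM in the same order of lines, and SPRED2 at 32.6 ± 15.3, 21.2 ± 14.9 and 4.14 ± 4.23, where U87 and BT20 lay within their spread. ETV5 was at 34.5 ± 17.0, 25.3 ± 14.4 and 0.15 ± 0.90 CPM and ETV4 at 3.64 ± 3.99, 6.01 ± 4.45 and 0.08 ± 0.43, so both PEA3-group factors were near 0 in LnCAP and did not differ between U87 and BT20 beyond the spread of wells. SPRY4 at 53.8 ± 68.6, 13.9 ± 14.0 and 6.98 ± 5.20 CPM and SPRY2 at 27.7 ± 23.7, 5.35 ± 5.55 and 0.27 ± 0.78 overlapped between U87 and BT20, given the plate spread of SPRY4 in U87. Over the shared symbols without the 6 most abundant, the order of U87 and BT20 was reversed for SPRED2, at 32.7 and 36.0 CPM, and for ETV5, at 34.6 and 42.8. In the deeper BT20 DMSO pools DUSP6 was again lowest at 1.82 CPM, while DUSP4 stood at 119.6 and PHLDA1 at 139.7. ETV4 held 49.0 and 48.1 CPM in these pools, so its level in BT20 depended on the kind of library.

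**Figure D5:**
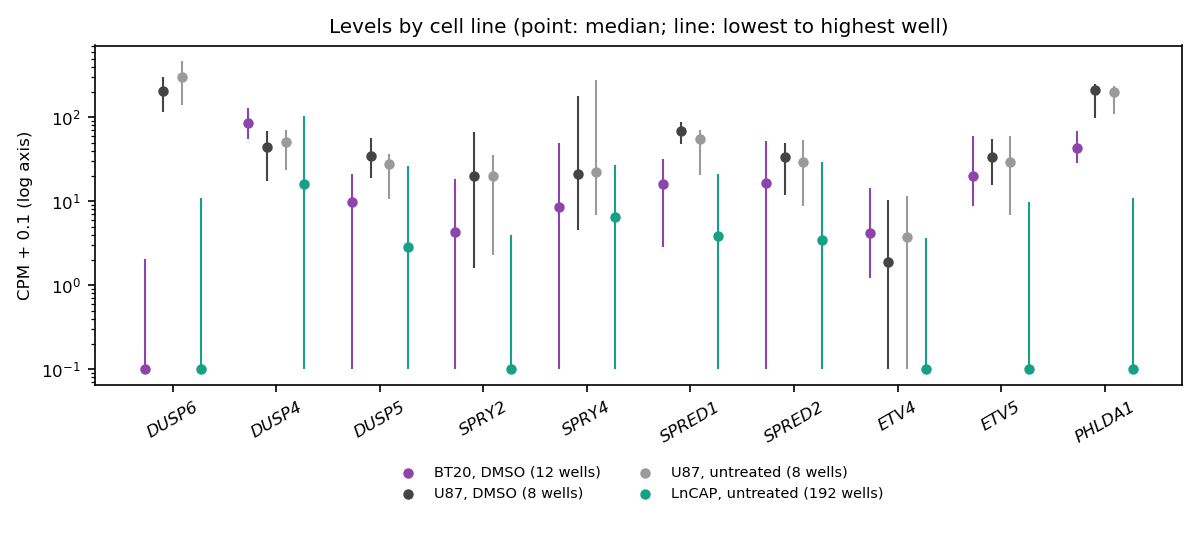
Level of each gene as CPM + 0.1 on a log axis in BT20 DMSO wells (12), U87 DMSO wells (8), U87 untreated wells (8) and LnCAP untreated wells (all); the point is the median and the line runs from the lowest to the highest well. DUSP6 is above 100 CPM in every U87 DMSO and untreated well and has a median of 0 in BT20 and LnCAP.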

How the data were processed

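The deposited files hold raw counts per gene symbol. For PLATE-Seq the authors mapped reads with BWA (bwa-mem) to the hg19 UCSC known-gene transcriptome and counted uniquely mapped reads on the correct strand, and for TruSeq the counting is not given in the sources used here. CPM was computed over all symbols except the 92 spike-in rows. The members, gene lists and tests were chosen with earlier results of these data known. Differences were tested with edgeR 4.0.16 in R 4.3.3 (TMM, filterByExpr, quasi-likelihood) on all genes, with Benjamini-Hochberg adjustment and a threshold of 0.05. The 3 classes and controls of U87 shared 1 fit with a term per compound and the plate as a block. For the scan each compound had a fit of its own with the controls of its plates. BT20 wells were fitted per drug and the 16 TruSeq pools together. DMSO and untreated wells of a plate deviated together from the mean of the set (r = 0.81 and 0.82), which is the basis of the block. The 2 plates of a set mirror each other in this measure, so it gives 1 value per set. Mean differences used log2 of the count plus 1 over the total. DESeq2 1.42.0, RLE scaling, no filter, no block, other controls and left-out samples were alternatives, and the scripts were tested on simulated data. Of the 2 further gene lists up to 6 called genes in each direction were named by smallest p, of which 1 is not reported here. Compounds were named for their class, for the most called members, or as the 5 lowest and 5 highest mean differences of a set, and others after their values were seen. Promoters came from RefSeq for 6 of 10 members. A floor of 3 counts covers counting error only.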

Additional observations from a re-analysis of the deposited data

Results flagged for a closer look

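Of 40 groups of 8 or 10 U87 wells, 4 held a well far from the others by Dixon's criterion, which chance alone meets in about 1 in 20 groups. These groups pool wells of 4 plates, and that rate takes no account of the plate: the SPRY4 wells at 282 and 114.4 CPM both lie on plate 1A, where the median over all wells was 178.8 CPM. An untreated well of plate 4B held 10.6 CPM of DUSP5, with the next at 25.3. A single untreated well of plate 1A held both 282 CPM of SPRY4, with the next at 114.4, and 20.4 CPM of SPRED1, with the next at 47.8. Among the RAF inhibitors the vemurafenib well of plate 1B held 532 CPM of DUSP6, with the next at 274, on the plate where the DMSO wells held 304 and 306.

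DUSP6 moved in opposite directions with bortezomib in the 2 lines, rising by 1.27 in the BT20 TruSeq pools (edgeR adjusted p = 1.587e-06) and with a log2 fold change of -0.97 in U87 (edgeR adjusted p = 0.00484), a call that was lost without the second U87 well (-0.89, adjusted p = 0.1059) and without the plate block. Its wells held 67.8 and 125.3 CPM in U87 and its pools 3.63 and 4.76 CPM in BT20. The difference was not tested, and the doses of 0.01 µM in U87 and 0.044 µM in BT20 and the times of 24 h and 6 h differed.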

How the results depend on the processing

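Under the settings tried, DUSP4, DUSP6, PHLDA1, SPRED1 and SPRED2 stayed called and lower with MEK inhibitors in all 22, SPRY2 in 13, ETV5 in all but set 1 alone (-0.95, adjusted p = 0.09017) and SPRY4 in all but the fit without the block. Called members went from 8 to 6 without the plate block and with only set 1, and to 7 to 9 when an inhibitor or a DMSO well was left out. The share of genes called went from 22.6% to 9.41% without the block, to 8.35% with only set 1 and to 18.5% to 22.3% with an inhibitor or DMSO well left out.

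Without the replicate block, which the pairing of wells by plate calls for in U87, 0.419% of genes were called for RAF, 0.172% for ERBB, 13.1% for MEK minus ERBB, 11.3% for MEK minus RAF and 0.215% for DMSO against untreated, in place of 3.43%, 1.6%, 20.7%, 19.6% and 4.46%. Called members then fell to 0 for RAF and for DMSO against untreated, and the compound fits gave 21 members and 5800 genes in place of 76 and 38615. With untreated wells as control, RAF gave 2 members and 5.67% of genes and ERBB 1 member and 3.77%. Leaving out samples gave 0 to 1 RAF members and 1.55% (without RAF265) to 4.22% of genes, 0 ERBB members and 1.02% (without lapatinib) to 1.96%, with 1.05% without varlitinib, 30 to 44 members and 13135 to 17027 genes over the compounds, and 17 to 24 members and 15737 to 21789 genes in TruSeq in place of 28 and 24600. Without a count filter BT20 wells gave 1587 genes in place of 696, and with runs of 8 wells as a block, which did not pair the wells (mean r = 0.00461, 0 of 84 pairs over 0.1), 657 genes and 2 members. The summed BT20 level was 387 CPM over shared symbols, and 2 of 5 most alike genes recurred with Pearson's r. The value of SPRY2 with CELASTROL turned sign, at -4.52 without its first well and 4.30 without its second. That second well held 0 counts of SPRY2 in a total of 43487, where 3 counts would be 69.0 CPM. The DMSO mean of its plate was 3.24 CPM, so this well cannot show a fall. The cause of these changes was not tested. Depth limits ETV4, SPRY2 and other members at a few CPM.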
